A study of Mus musculus with 6 samples.

Results

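The TCEAL and BEX genes encode a family of small proteins, and the members described here lie in 1 region of the X chromosome. All 10 listed family members, Tceal1, Tceal3, Tceal5, Tceal6, Tceal7, Tceal8, Bex1, Bex2, Bex3 and Bex4, had a probe set of their own, out of 22180 genes measured. Members were taken by gene symbol. Where a gene had several probe sets, which was the case for Bex4, its row was selected on the highest mean over all 6 arrays. The family itself was chosen by the measured difference of Tceal7 between the groups, which was already known. The values of Tceal7 therefore describe that choice and are not independent evidence.

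RNA came from gastrocnemius, a muscle of the calf, and was measured on 6 expression arrays, 1 per mouse. The TAK1 knockout group was 3 mice with TAK1 deleted in skeletal muscle for 3 weeks. The control group was 3 littermates that carried the floxed TAK1 gene. The labels name neither the promoter that drives the deletion nor the strain, age or sex. TAK1 is a kinase encoded by Map3k7 that acts below cytokine receptors and activates IKK and the stress kinases p38 and JNK. Values are log2 levels, on which a step of 1 is a doubling, and every difference is knockout minus control.

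TCEAL proteins are named after their likeness to the transcription elongation factor TFIIS, and BEX after their discovery as brain-expressed X-linked genes. Both are short, largely unfolded proteins that act by binding other proteins, and they are best known from neurons, endocrine cells and tumours. In muscle the best studied member is Tceal7. In mouse muscle it is switched on by the myogenic transcription factors, and in cultured mouse myoblasts it slows division and favours fusion into myotubes. The human protein TCEAL7 has been described as a repressor of MYC and NF-kB target genes in tumour cells.

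Map3k7, the targeted gene, had log2 levels of 8.20, 8.28 and 8.17 in knockout muscle, against 8.47, 8.32 and 8.42 in control muscle. Every knockout value was below every control value, by a mean of 0.19 on the log2 scale, but this was not called when all genes were tested together (limma, adjusted p = 0.686). The labels do not say which part of the gene was deleted, and the part of non-fibre cells, in which it was not to be deleted, was not tested. Fibre markers lay high on all arrays, with a mean log2 level over 15 genes of 13.44 to 13.45 in knockout muscle and 13.44 to 13.55 in control muscle. The X-linked transcript Xist, which silences 1 X chromosome in female cells, lay between 9.98 and 10.28 on all 6 arrays, and the groups overlapped. In muscle tissue, fewer cells of a type and less RNA per cell cannot be told apart.

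Tceal7 was the member with the widest gap between the groups. Its log2 levels were 5.56, 5.52 and 5.32 in knockout muscle, against 7.93, 7.82 and 8.81 in control muscle. All 3 knockout values lay close together and far below all controls, with a gap of 2.26 between the highest knockout and the lowest control. The group means were 5.47 ± 0.13 in knockout and 8.19 ± 0.54 in control muscle (SD, n = 3 each). Background was gauged from 1390 olfactory and vomeronasal receptor genes, which are used mainly in sensory neurons, and 95% of them had a mean at or under 5.85. The knockout level of Tceal7 was below this receptor-gene level on all 3 arrays, so its fold is a bound. Taken from the control mean down to that level, Tceal7 was at least 5.04-fold lower in knockout muscle. The bound allows for background only and not for the spread of the 3 controls. The measured log2 difference was −2.72 (SE 0.24, 95% confidence interval −3.26 to −2.18), the second lowest of all genes tested.

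Tceal7 was the 1 member of 10 past an adjusted p of 0.05 (limma, adjusted p = 0.00971, over all genes), where 0.0947% of all genes were. Since its difference led to the choice of the family, nothing is read from that count. Control 3 had the highest level, and without it the difference was −2.41. The call was lost without knockout 1 (adjusted p = 0.0652) or knockout 2 (adjusted p = 0.0518), while the difference itself kept its size, at −2.77 and −2.75.

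**Figure D1:**
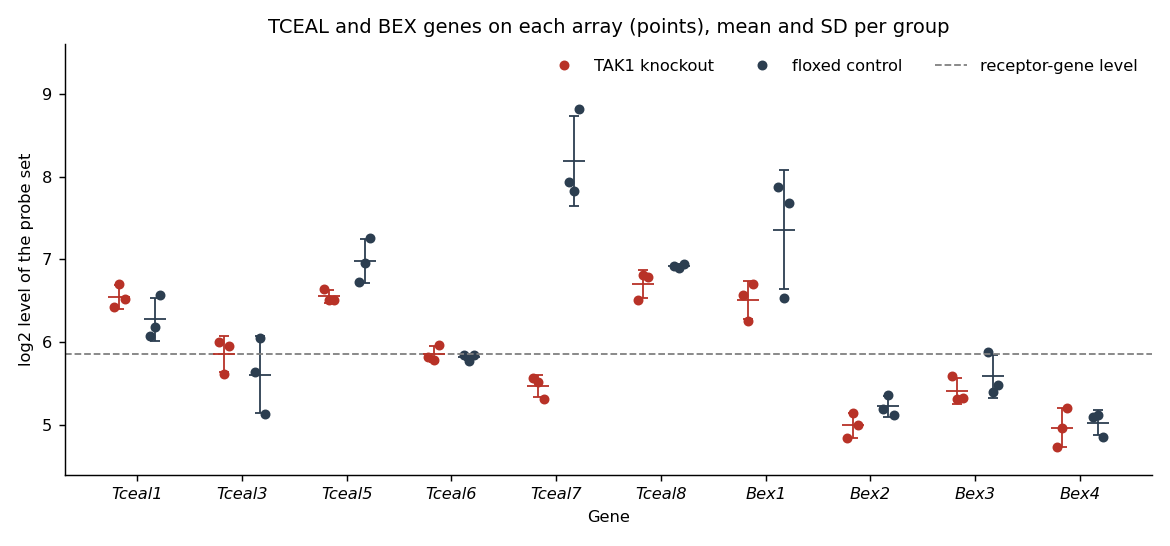
Log2 level of each TCEAL and BEX gene on each array (points), with the mean and SD of the 3 knockout arrays (red, left) and the 3 control arrays (dark, right); the dashed line is the receptor-gene level of 5.85. Tceal7 drops below that line in knockout muscle, while the 3 Bex1 controls spread from 6.53 to 7.87 and the other 8 genes have differences of −0.43 to 0.27.

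Bex1, the X-chromosome neighbour of Tceal7 on one side, had the next largest difference. Bex1 binds calmodulin, and mice without it regenerate injured muscle abnormally. Its log2 levels were 6.57, 6.26 and 6.71 in knockout muscle, against 7.87, 6.53 and 7.68 in control muscle. Controls 1 and 3 lay over all knockouts, but control 2 fell inside the knockout range, so the groups overlapped. The log2 difference was −0.85 (SE 0.31, 95% confidence interval −1.56 to −0.14) and did not pass (limma, adjusted p = 0.533). Without control 2 it was −1.26 (adjusted p = 0.113), and without control 1 it was −0.59 (adjusted p = 0.792).

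Tceal5 and Tceal8 lie on the other side of Bex1. Tceal5 had log2 levels of 6.65, 6.51 and 6.51 in knockout muscle, against 6.73, 6.96 and 7.26 in control muscle. The groups did not overlap, by a narrow gap of 0.087, and the log2 difference of −0.43 (95% confidence interval −0.75 to −0.11) did not pass (limma, adjusted p = 0.453). Tceal8 had levels of 6.51, 6.82 and 6.79 in knockout muscle, against 6.92, 6.90 and 6.95 in control muscle. Its controls were almost equal and above each knockout, and the log2 difference of −0.22 (95% confidence interval −0.47 to 0.03) did not pass either (limma, adjusted p = 0.675). Without knockout 1 it was −0.12.

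Tceal1 is a nuclear phosphoprotein, known from the human protein to raise or lower transcription depending on the promoter. It pointed the other way, with log2 levels of 6.42, 6.70 and 6.52 in knockout muscle, against 6.08, 6.18 and 6.57 in control muscle. Control 3 lay inside the knockout range. The log2 difference was 0.27 (95% confidence interval −0.06 to 0.60; limma, adjusted p = 0.716), and leaving out 1 array gave 0.17 to 0.42.

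The other 5 members had means over all arrays at or below the receptor-gene level, where a difference is compressed and may be missed. Bex3 is also called NADE and binds the neurotrophin receptor p75. Its log2 levels were 5.60, 5.31 and 5.32 in knockout muscle, against 5.88, 5.40 and 5.48 in control muscle. The groups overlapped, and the difference was −0.18 (95% confidence interval −0.51 to 0.16), or −0.03 without control 1. Bex2 had a difference of −0.23 (95% confidence interval −0.50 to 0.04), with levels of 4.84 to 5.15 in knockout and 5.12 to 5.37 in control muscle.

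Tceal3 had a difference of 0.25 (95% confidence interval −0.25 to 0.75), with levels of 5.61 to 6.01 in knockout and 5.13 to 6.06 in control muscle. Control 3 was the lowest, and without it the difference was 0.01, against 0.47 without control 2. Tceal6 was the steadiest member, with levels of 5.79 to 5.96 in knockout and 5.78 to 5.85 in control muscle and a difference of 0.03 (95% confidence interval −0.19 to 0.25). Bex4 had levels of 4.74 to 5.20 in knockout and 4.86 to 5.13 in control muscle and a difference of −0.06 (95% confidence interval −0.38 to 0.26). The 2 probe sets of Bex4 did not point the same way, since the dimmer one had a difference of 0.33, with means of 4.39 in knockout and 4.06 in control muscle.

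Apart from Tceal7, 0 of 9 members passed an adjusted p of 0.05, with adjusted p from 0.453 to 0.969 (limma), and 2 of them, Tceal5 and Bex1, had an unadjusted p under 0.05, which 8.04% of all genes had. Their differences ran from −0.85 to 0.27. Of these 9, 6 were lower and 3 higher in knockout muscle, with a median log2 difference of −0.18, beside a median of −0.0003 over all genes. Groups did not overlap in 2 of the 9, Tceal5 and Tceal8, both lower in knockout muscle, where the same held for 6.65% of all genes in that direction and 13.4% in either. With Tceal7, which was chosen for its difference, the count was 3 of 10. Without control 3 it was 5 of 10, 4 lower and 1 higher, where 22.7% of all genes did not overlap in either direction.

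Tceal9 and Bex6, relatives outside the list, were measured as well. Tceal9, the neighbour of Tceal7 on the side away from Bex1, had log2 levels of 8.86, 8.68 and 8.74 in knockout muscle, against 9.09, 8.90 and 9.09 in control muscle. The groups did not overlap, and the log2 difference of −0.27 (95% confidence interval −0.50 to −0.03) did not pass (limma, adjusted p = 0.558). Its second probe set had a difference of −0.19. There the groups overlapped, at 7.70 to 8.10 in knockout and 7.69 to 8.32 in control muscle. Bex6, the relative on chromosome 16, lay far below the receptor-gene level, at 3.42 to 3.84 in knockout and 3.14 to 3.57 in control muscle, so no fold is given.

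In RefSeq (GRCm38.p6, used here for the order of genes), all 10 members lie on the X chromosome, from Tceal6 to Tceal1. Between and including these, 25 genes were measured, 11 of them TCEAL or BEX genes. An unbroken run of 10 measured genes around Tceal7, from Bex2 to Bex3, had differences below 0, 8 of TCEAL or BEX genes and 2 of others, Nxf3 (−0.05) and 5730412P04Rik (−0.01). This run was seen only after the values were known. Within it, Bex2, Nxf3, 5730412P04Rik, Bex4 and Bex3 had means below the receptor-gene level. The 14 genes of other families in this stretch had differences of −0.19 to 0.30, with a median of 0.12. Of them, 6 were lower and 8 higher. All but Mir1970 (mean log2 level 6.32) and Bhlhb9 (6.59) had means below the receptor-gene level, where a difference may be missed. None of the 14 passed, and 0 had an unadjusted p under 0.05 (limma). On the whole X chromosome, 1 of 899 measured genes was called lower, which was Tceal7, and 1 was called higher.

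**Figure D2:**
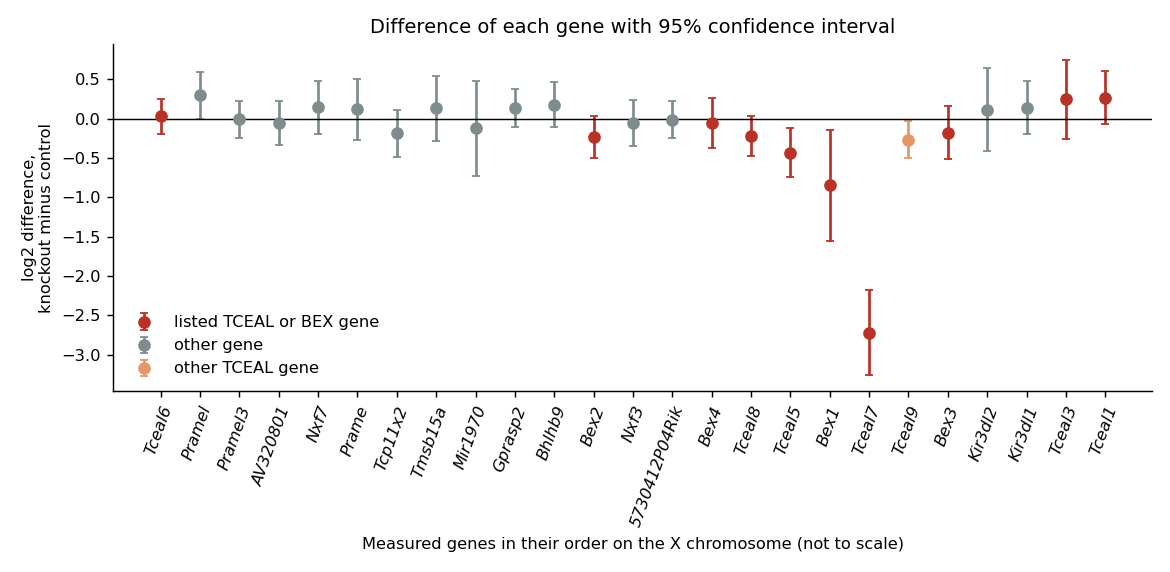
Log2 difference (knockout minus control) with its 95% confidence interval for the 25 measured genes from Tceal6 to Tceal1, in their order on the X chromosome and not to scale; red marks the 10 listed members, orange Tceal9 and grey other genes. Tceal7 stands at −2.72 between Bex1 at −0.85 and Tceal9 at −0.27, while the grey genes lie between −0.19 and 0.30. Most grey genes have means below the receptor-gene level, where a difference may be missed.

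The sequences around the genes' start sites show what the members share apart from their levels. RefSeq promoter windows of 300 bases (250 before and 50 after the start site) were found for all 10 members. The letters CACGTGA, on either strand, occurred in a window of 9 of 10 members, against 4.29% of 27025 genes with a window. In these 9 members the letters TGAC stood before them, 8 or 10 bases away. The motifs searched were TGACNNNNNNNNCACGTGA, present in 0.0592% of these genes, and TGACNNNNNNNNNNCACGTGA, present in 0.0333%, each on both strands. The motif was chosen after the members' windows had been read, so its count among them is a description. The stretches are printed with these fixed letters in capitals and 4 bases on each side, 5′ to 3′ on the gene's strand, because they are the sequence that Tceal7 has in common with 8 other members.
Tceal7: aagaTGACataatcctCACGTGAttag
Tceal5: ctggTGACgttcctgtCACGTGAtcag
Tceal8: ttgaTGACgcgatcctCACGTGAccag
Tceal6: agggTGACgctttgctCACGTGActgg
Tceal3: cgggTGACgcggtgttCACGTGAccgg
Bex1: cttcTGACgcaagtggCACGTGActag
Bex4: cttcTGACgcaagtggCACGTGActag
Tceal1: gctgTGACgcgctcccctCACGTGAccag
Bex3: gcagTGACgcagggccctCACGTGAcccg

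The stretch of Tceal7 lies on the plus strand at chrX:136223965-136223991 of GRCm38.p6, with its capitals starting 72 bases before the start site. Those of Tceal8 and Bex3 lie inside the transcript, with capitals that start at base 6 and base 14 from the start site. Over all genes with a RefSeq window, 25 held one of the spaced motifs, 9 of them members. Of the 16 others, 4 lie on the X chromosome, among them Armcx1, Armcx4 and Armcx6 of the neighbouring ARMCX family. Of these 16, 15 were measured, with differences of −0.16 to 0.38, and 0 passed (limma; 0 at an unadjusted p under 0.05). Bex1 shares this stretch to the letter with Bex4, and their differences were −0.85 and −0.06. Neither passed, and the groups overlapped for both. Bex4 lay below the receptor-gene level on all arrays, where a difference may be missed, so the 2 values are not compared.

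The 250 bases before the start site of Tceal7 (GRCm38.p6, chrX:136223791-136224040, plus strand) are printed whole because Tceal7 is the member whose level differed, with the same letters in capitals.
Tceal7 upstream: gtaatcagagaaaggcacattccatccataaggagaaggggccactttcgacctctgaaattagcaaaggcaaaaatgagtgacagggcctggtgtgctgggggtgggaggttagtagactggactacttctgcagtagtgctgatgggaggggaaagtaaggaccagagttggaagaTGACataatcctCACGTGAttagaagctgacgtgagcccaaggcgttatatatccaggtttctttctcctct
The E-box letters CAGCTG, a form bound by myogenic factors, were found in the windows of Tceal1 and Tceal3 and in 18.3% of genes with a window. They do not occur in the window of Tceal7, which says nothing about sites outside it. Of the 45 pairs of members, 2 shared an identical run of over 50 bases, Bex1 with Bex4 (271 bases) and Bex2 with Bex3 (162 bases), and the longest run of any other pair was 18 bases. Close copies can share hybridisation, but these windows lie largely before the start site and say little of the transcripts. Neither transcripts nor probe sequences were compared here, so values within these 2 pairs may not be fully separate.

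The 5 genes whose levels over the 6 arrays were most like those of Tceal7 were found among 392 genes with a range of at least 1 and a mean above the receptor-gene level. They were Map3k7cl (Pearson's r = 0.991), Flrt1 (0.978), Osbpl6 (0.966), Tigd4 (0.964) and Pkia (0.962). The points share the 2 groups, so these values mostly restate a low level in all 3 knockouts and are given as a description. Map3k7cl, a short protein with likeness to the C-terminal part of TAK1, had log2 levels of 7.46, 7.49 and 7.24 in knockout muscle, against 8.70, 8.85 and 9.64 in control muscle. Control 3 was the highest and knockout 3 the lowest array, as for Tceal7. Pkia, an inhibitor of protein kinase A, had levels of 10.71, 10.39 and 10.30 in knockout muscle, against 11.44, 11.18 and 11.50 in control muscle. Flrt1, an adhesion protein of the cell surface, and Osbpl6, which carries lipids, had log2 differences of −3.30 and −1.08 and passed (limma, adjusted p = 0.00565 and 0.0327). Map3k7cl (−1.67, adjusted p = 0.0511), Tigd4 (−1.04, adjusted p = 0.116) and Pkia (−0.91, adjusted p = 0.105) did not.

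**Figure D3:**
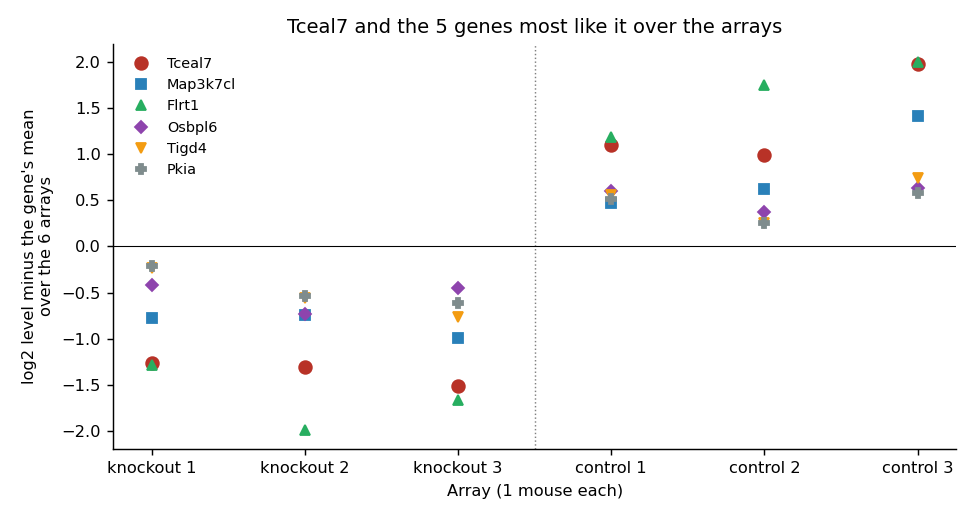
Log2 level minus each gene's own mean over the 6 arrays, for Tceal7 (red circles) and the 5 genes most like it, with knockout arrays on the left and control arrays on the right. All 6 genes lie below 0 on the 3 knockout arrays and above 0 on the 3 control arrays, and all 6 are highest on control 3.

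Genes tied to the family by reported roles, regulation, name or X-chromosome position were examined as lists. Of their members, 0 passed the test over all genes (limma). Beside the list counts at an unadjusted p under 0.05 stands the share over all genes, 8.04% (limma). Among 13 myogenic and partner transcription factors, which switch on muscle genes, 3 were higher and 10 lower, with a median log2 difference of −0.05 and 0 at an unadjusted p under 0.05. Myod1 had a difference of −0.34, with levels of 7.18, 7.28 and 7.47 in knockout muscle, against 8.07, 7.33 and 7.57 in control muscle, and Myf6 had one of 0.22. Among 23 genes of MYC and the cell cycle, 10 were higher and 13 lower, with a median of −0.07. Of them, 5 had an unadjusted p under 0.05, and Ccna2, Cdk1, Cdk6, Mycl and Mycn lay below the receptor-gene level. Cdkn1c, an inhibitor of cyclin-dependent kinases, had levels of 7.72, 7.57 and 7.42 in knockout muscle, against 6.89, 6.97 and 7.19 in control muscle. Its difference of 0.55 did not pass (limma, adjusted p = 0.233), and neither did that of Odc1, a MYC target and enzyme of polyamine synthesis, at −0.62 (adjusted p = 0.646).

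Among 17 transcription elongation genes, including TFIIS itself, 8 were higher and 9 lower, with a median of −0.03 and 0 at an unadjusted p under 0.05. The largest differences there were those of Aff1 (−0.22) and Ell (−0.18). Among 12 genes of p75 and neurotrophin signalling, whose receptor p75 binds Bex1 and Bex3, 6 were higher and 6 lower, with a median of −0.04 and 1 at an unadjusted p under 0.05. That list was led by the receptor Ntrk2 (−0.45) and the adaptor Traf6 (−0.25), which acts upstream of TAK1. The knockout mean of Ntrk2, 5.77, was below the receptor-gene level, where a difference is compressed. The mean log2 level of the list per array was 6.96 to 7.03 in knockout and 7.04 to 7.08 in control muscle, without overlap. Since 13.4% of all genes did not overlap in either direction, nothing is read from that. In the p75 list, Ntrk3, Omg and Sorcs1 had means over all arrays below the receptor-gene level, and 12 of 20 listed genes were measured. Among 9 ARMCX, GPRASP and other genes of the same X-chromosome region, 4 were higher and 5 lower, with a median of −0.02. At an unadjusted p under 0.05 there were 0, and Bhlhb9 (0.18) and Gprasp2 (0.14) led the list. Armcx1, Armcx6, Gprasp2 and Zmat1 lay below the receptor-gene level.

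Markers of other cells gave 0 called genes as well (limma). An unadjusted p under 0.05, counted below for each marker list, was found in 8.04% of all genes (limma). Satellite cell and myoblast markers, of which Pax7, Myf5, Myod1 and Myog stand in the myogenic list too, counted 6 higher and 9 lower out of 15, with a median of −0.13 and 3 at an unadjusted p under 0.05. Their mean log2 level per array was 7.13 to 7.19 in knockout and 7.29 to 7.32 in control muscle. The groups did not overlap in it, as in that of the p75 list but in none of the other lists. Since 13.4% of all genes did not overlap in either direction, nothing is read from these list means. Myh3, the embryonic myosin, had the largest difference among the satellite cell and myoblast markers, at −0.84, with Chrdl2 at −0.40. The knockout mean of Myh3, 5.79, was below the receptor-gene level, where a difference is compressed. Calcr was the 1 marker with a mean over all arrays below that level. All 11 tendon markers had a negative difference, with a median of −0.53 and 5 at an unadjusted p under 0.05, led by Kera (−1.43) and Tnmd (−1.02). Their mean per array was 6.47 to 7.29 in knockout and 7.27 to 7.67 in control muscle, which overlapped, and Mkx lay below the receptor-gene level. The part of either list in the levels of Tceal7 and Bex1 was not tested.

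Schwann cell and nerve markers, which bear on a family known from neurons, had a median of −0.01, with 7 higher and 8 lower of 15 and 1 at an unadjusted p under 0.05. Their mean per array was 5.93 to 6.03 in knockout and 5.93 to 6.10 in control muscle, and 7 lay below the receptor-gene level, Cdh19, Gap43, Ncmap, Nefl, Nefm, S100b and Tubb3. Scn7a (0.26) and Tubb3 (−0.21) had the largest differences. Muscle fibre markers had a median of −0.01, with 4 higher and 11 lower of 15 and 2 at an unadjusted p under 0.05, and were led by Myh1 (−0.49) and Mylpf (−0.46).

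Fibro-adipogenic markers had a median log2 difference of −0.10 over 12 genes and endothelial markers one of 0.01 over 11, with 0 at an unadjusted p under 0.05 in each, led by Col1a1 (−0.52) and Mfap5 (0.31) and by Egfl7 (−0.25) and Tek (−0.22). Smooth muscle and pericyte markers had a median of −0.11 over 10 genes, with 1 at an unadjusted p under 0.05, and were led by Kcnj8 (−0.23) and Notch3 (−0.21). Adipocyte markers had a median of −0.11 over 8 genes and macrophage markers one of −0.01 over 10, again with 0 at an unadjusted p under 0.05. Their largest differences were those of Cidec (−0.41) and Retn (−0.40) and of Cd68 (0.42) and Adgre1 (−0.23). Cnn1 of the smooth muscle list, Lep and Ucp1 of the adipocyte list and Ptprc of the macrophage list lay below the receptor-gene level.

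**Figure D4:**
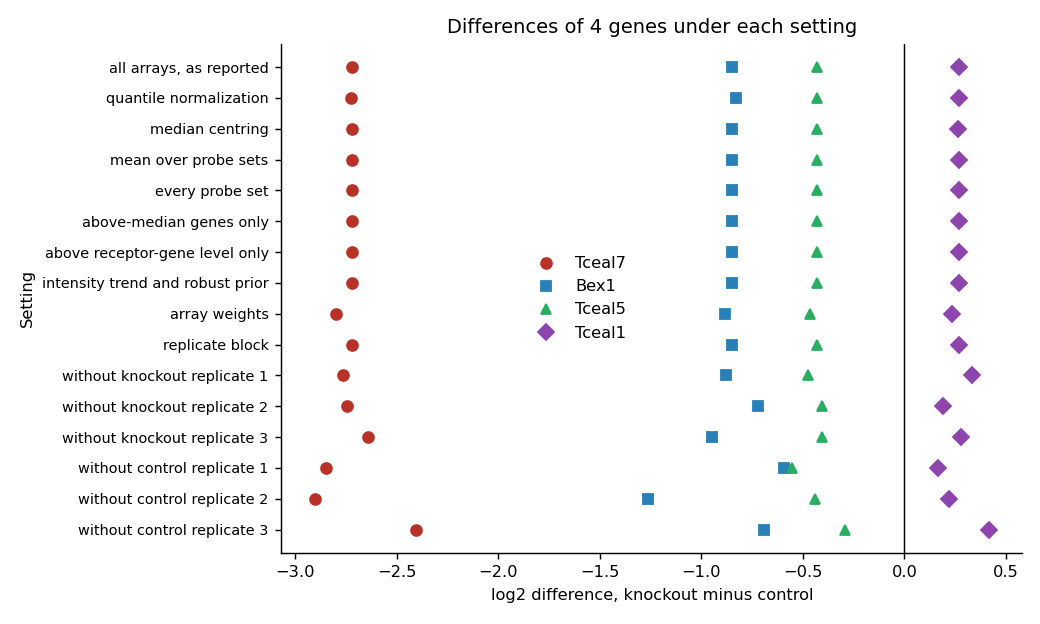
Log2 difference (knockout minus control) of Tceal7, Bex1, Tceal5 and Tceal1 with all arrays (top) and under each of 15 other settings. Tceal7 stays between −2.90 and −2.41, Bex1 spreads from −1.26 to −0.59, and Tceal5 and Tceal1 keep opposite signs throughout.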

How the data were processed

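Per the labels, 6 littermates gave 1 array each. The deposited values are log2 probe set summaries, and the submitters' processing notes name RMA, oligo and limma without versions or order. RMA makes the arrays alike and compresses differences of dim genes. Of 41345 probe sets, 23521 had 1 gene symbol in the platform annotation, 1814 had several and the rest none, and single-symbol probe sets gave 22180 genes. The comparison used limma 3.58.1 under R 4.3.3 (lmFit, eBayes, two-sided, Benjamini-Hochberg over all genes, no filter on dim genes). The fit was tested on simulated data. The number of arrays limits the precision, and scan dates were not used here. Members, the 15 lists and the tests were chosen with earlier results of these data known. Named genes were the members, their relatives, Map3k7, the 2 widest differences of each list and the 5 genes most like Tceal7. Xist was added after the data were seen. Sequences are from RefSeq, GRCm38.p6, and plots from matplotlib 3.10.9. Alternatives were other scalings, probe set rules, filters, variance models, array weights, a replicate block and leaving out each array.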

Additional observations from a re-analysis of the deposited data

How the results depend on the processing

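Tceal7 was lower in knockout muscle under all 15 alternatives, and its call was kept under 12. These counts describe a gene chosen for its difference and are not independent evidence. Tceal7 passed the filters on dim genes only through its control level, with means of 8.19 in control and 5.47 in knockout muscle. The mean over probe sets could not change it, since it has a single probe set. Its call was lost when every probe set was tested (limma, log2 difference −2.72, adjusted p = 0.106, with 41345 features in place of 22180, and 0 members called) and without knockout 1 or knockout 2 (0 members called in each). Over fits that left out 1 array the difference ran from −2.90 to −2.41 and its adjusted p from 0.00156 to 0.0652, members called from 0 to 1, and members whose groups did not overlap from 3 to 5, the last without control 3. With 5 arrays 21.6% to 25.1% of all genes did not overlap, so these counts do not compare with that over 6 arrays. Quantile normalization and median centring each gave 4 such members, where 14.0% and 12.9% of all genes did not overlap. The labels do not say whether replicate numbers pair the arrays. Correlations of deviations between arrays of the same number were 0.08, 0.21 and −0.07. Arrays of unlike number were not compared, so these values do not settle it. With the replicate block Tceal7 had an adjusted p of 0.0386 (limma) and 1 member was called, with 17 genes called in all. Over all genes, 21 were called, 53 among above-median genes, 45 above the receptor-gene level, 36 with an intensity trend and robust prior, 6 with every probe set, and 2 to 11 without 1 array. Signs turned for Bex4 with the mean over its probe sets (0.14) and without knockout 1 (−0.17 to 0.057 over fits without 1 array), and for Tceal6 without knockout 3 (−0.023 to 0.065 over such fits). The cause was not tested. The filters left 5 of 10 members, and the 5 dim members are limited by signal near background.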
